A study of Mus musculus with 6 samples.

Results

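Kinesins are motor proteins that walk along microtubules, and 40 of the 16244 genes measured in pathogenic Th17 cells from wild-type (WT) and RORγtN275D mice carry a kinesin symbol. The members are every gene named Kif followed by a number, with or without a letter, or Kifc followed by a digit. The naming rule uses no measured value. They were divided by known function into 12 mitotic kinesins, 16 cargo-transport kinesins and 12 others, among them motors with roles in cilia or microtubule length. Kif2a, which acts on both interphase and spindle microtubules, was placed with the others. Cenpe, a kinesin of the kinetochore whose symbol lies outside the naming rule, was placed with the mitotic partners described further on.

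Both genotypes were naive CD4+ T cells isolated from spleen, activated in culture with anti-CD3 and anti-CD28, and polarized for 3 days toward inflammatory Th17 cells before poly-A RNA sequencing, with 3 libraries a genotype. The series text names IL-6, IL-1β and IL-23 as the polarizing cytokines, and the culture methods add TGF-β and blocking antibodies to IL-4 and IFN-γ. The RORγtN275D mice carry a knockin substitution, asparagine to aspartate, in the ligand-binding domain of RORγt, the transcription factor of the Th17 lineage. They had a C57BL/6 background with no substrain given, and the WT mice were purchased from another source and listed as C57BL/6NJ. Whether these cultures used littermates is not given, so genotype and a difference of substrain or colony cannot be told apart. The study's methods give mice of 6 to 12 weeks and both sexes for experiments in general, with groups matched where possible, and no separate age for these cultures. Whether the knockin donors were homozygous and whether the 3 libraries of a genotype came from separate mice or cultures are not given in the sources used here, so p-values measure only the spread between these libraries.

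In a dividing cell, mitotic kinesins push the spindle poles apart, move chromosomes to the spindle equator, shorten microtubules and build the midzone where the cell is cut. Most of their genes are transcribed in late G2 and mitosis, and activated T cells in culture divide rapidly. Transport kinesins are present throughout the cell cycle. Kinesin-1 and kinesin-3 motors carry vesicles, mitochondria and endosomes toward microtubule plus ends, kinesin-2 motors serve cilia and vesicle traffic, and C-terminal kinesins move toward minus ends. In T cells, microtubules also move the centrosome and vesicles to the contact with another cell.

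Most mitotic kinesins were lower in RORγtN275D cells, and transport kinesins were divided. Of the 12 mitotic kinesins, 8 were called lower and 0 higher, with a median log2 fold change of -0.14, and 11 of 12 had a negative value. At an unadjusted p under 0.05, and in edgeR and DESeq2 on the recovered reads, the number called higher was also 0. Of the 14 cargo-transport kinesins tested, 3 were called higher and 3 lower, with a median of 0.06. Of the 5 other kinesins tested, 2 were called higher and 1 lower. The changes were small: 0 of 31 tested kinesins passed a 2-fold threshold in limma, edgeR or DESeq2, against 3.59% of all 11908 genes tested. At an adjusted p under 0.05 in limma with no fold threshold, 17 of 31 were called.

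Those counts have to be read against a broad difference between the genotypes. Over all 11908 genes, 50.9% were called in either direction, 24.7% higher and 26.1% lower, with a median of -0.0026. Of the 31 kinesins, 5 were called higher, 12 lower and 14 neither, so the share called in either direction lay close to the background. The mitotic group had 66.7% called lower and 0% higher. The cargo-transport group had 21.4% in each direction, which is near the shares over all genes. The genotypes did not overlap for 18 of 31 kinesins (7 above and 11 below WT), and for 57.7% of all genes (3347 above and 3528 below WT).

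The promoters of the mitotic kinesins share a sequence feature that the naming rule did not use. The cell cycle genes homology region (CHR) is a short element known from promoters of late cell cycle genes, where it is often paired with upstream CCAAT boxes. The letters TTTGAA or TTCGAA, read on either strand, were present in 10 of 11 mitotic kinesins with a RefSeq promoter window (90.9%), in 1 of 10 cargo-transport kinesins (10%) and in 3 of 10 others (30%), against 21.7% of 27025 genes. A window holds 250 bases before and 50 after the annotated start site in the GRCm38.p6 assembly, the assembly also named mm10. A window was found for 31 of the 40 kinesins. A CHR match began within 30 bases of a start site in 8 of 11 mitotic, 0 of 10 cargo-transport and 2 of 10 other kinesins, and in 3.95% of all genes, a distance chosen after the positions were seen.

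Stretches from 100 bases before to 30 bases after the start site are shown for the 4 called mitotic kinesins with the largest decreases among those with a window, and for comparison genes, 5′ to 3′ on the strand of the gene, with CHR and CCAAT letters in capitals (TTCAAA and ATTGG are the same letters on the other strand). The 4 are Kif18b at chr11:102925095-102925224 (minus strand), Kif20b at chr19:34922258-34922387 (plus strand), Kif14 at chr1:136467748-136467877 (plus strand) and Kif22 at chr7:127042391-127042520 (minus strand).
Kif18b: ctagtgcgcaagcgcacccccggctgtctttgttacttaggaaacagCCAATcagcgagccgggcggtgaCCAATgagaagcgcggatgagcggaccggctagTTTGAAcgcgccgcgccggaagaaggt
Kif20b: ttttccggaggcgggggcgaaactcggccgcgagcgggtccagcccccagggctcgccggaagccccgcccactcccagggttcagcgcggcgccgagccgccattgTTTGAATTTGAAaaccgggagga
Kif14: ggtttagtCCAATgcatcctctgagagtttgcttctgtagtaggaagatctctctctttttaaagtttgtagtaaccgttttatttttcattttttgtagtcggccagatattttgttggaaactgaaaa
Kif22: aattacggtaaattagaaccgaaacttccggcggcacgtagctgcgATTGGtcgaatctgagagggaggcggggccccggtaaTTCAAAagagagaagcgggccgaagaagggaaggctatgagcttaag
Kif18b has a pair of CCAAT boxes followed by the CHR letters at position 4 of the transcript, while Kif20b has the CHR letters in tandem at positions 8 and 14 and no CCAAT box in this window. In Kif22 a CCAAT box in reverse is followed by reversed CHR letters 17 bases before the start. Kif14 has a CCAAT box in this stretch but no CHR letters, since its CHR match lies 228 bases before the start site of this window. The gene is annotated from chr1:136466301, so this window lies inside the gene and may not be its promoter. The Kif14 match is counted in the 10 of 11 given above.

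The letters did not sort the called from the uncalled mitotic kinesins. Kif15, Kif23 and Kif4 hold CHR letters and were not called, and Kif18a, the mitotic kinesin with none in its window, was also not called. Kif15 at chr9:122950981-122951110 (plus strand) and Kif18a at chr2:109280638-109280767 (plus strand) are shown with the transport kinesins called higher with the largest increases, Kif3c at chr12:3365032-3365161 (plus strand) and Kif3a at chr11:53567269-53567398 (plus strand). The Kif3a window also lies inside its gene, which is annotated from chr11:53565701, and may not be its promoter.
Kif15: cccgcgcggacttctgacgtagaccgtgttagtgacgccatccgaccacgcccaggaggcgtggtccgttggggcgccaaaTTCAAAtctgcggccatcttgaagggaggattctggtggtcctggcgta
Kif18a: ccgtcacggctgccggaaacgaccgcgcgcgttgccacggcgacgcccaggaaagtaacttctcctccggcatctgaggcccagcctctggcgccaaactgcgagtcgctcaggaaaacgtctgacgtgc
Kif3c: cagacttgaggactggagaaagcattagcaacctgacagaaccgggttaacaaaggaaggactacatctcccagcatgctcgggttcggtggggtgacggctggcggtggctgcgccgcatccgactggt
Kif3a: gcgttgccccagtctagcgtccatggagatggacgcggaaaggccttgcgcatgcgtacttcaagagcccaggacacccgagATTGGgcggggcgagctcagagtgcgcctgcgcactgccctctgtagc
CCAAT letters were present in 63.6% of mitotic, 30% of cargo-transport and 30% of other kinesins, against 41.1% of all genes. The core letters of a hypoxia response element, ACGTG or GCGTG, were present in 54.5%, 60% and 60%, against 46.7% of all genes. The core of a ROR response element, AGGTCA, was present in 9.09%, 10% and 20%, against 18.1%. These are matches of letters in one short window and not binding sites.

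**Figure D1:**
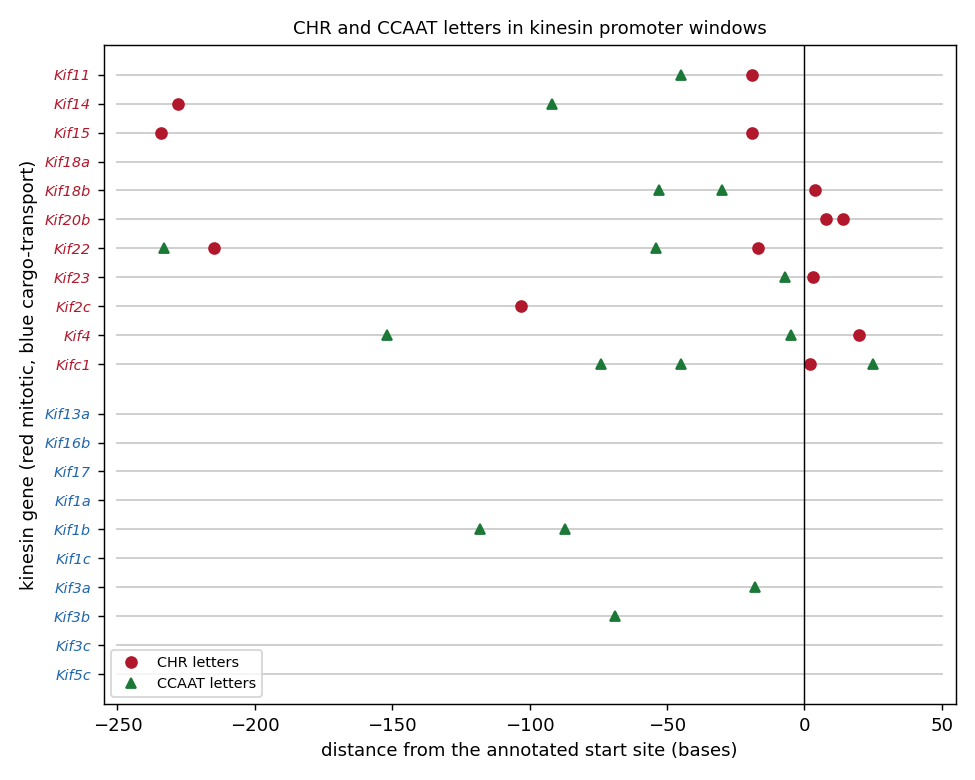
Distance in bases from the annotated start site (x axis) of CHR letters (red circles) and CCAAT letters (green triangles), by first base, in the first listed promoter window of each mitotic (red names) and cargo-transport (blue names) kinesin. Red circles lie near the start site of most mitotic kinesins, and no blue-named gene has one in the window drawn (Kif1a has 1 in its other window).

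The libraries had between 17659035 and 18510878 reads on genes, and kinesins together took 0.192% to 0.199% of the normalized reads in each. The summed level of the mitotic kinesins was 18581 to 19556 normalized reads in WT and 17116 to 17181 in RORγtN275D libraries. For cargo-transport kinesins it was 12148 to 12502 in WT and 12517 to 12648 in RORγtN275D, and for the others 4034 to 4091 and 4764 to 4972. Kif21b alone had a mean 859 normalized reads higher in RORγtN275D cells, more than the difference in the sum of its group. WT replicate 3 stood apart from the other WT libraries, with a mean chi-square per gene of 5.11 and 5.67 against them, where the other same-genotype pairs had 1.61 to 2.02. Among the WT libraries, Kif11, Kif14, Kif15, Kif18a, Kif20b, Kif23 and Kif4 were lowest in that library, and Kif18b, Kif2c and Kifc1 were highest.

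Kif18b (chr11:102905518-102925134 in mm10), a plus-end motor that limits the length of astral microtubules, had the largest decrease of the mitotic group. It had 1552, 1635 and 1831 normalized reads in WT replicates 1 to 3 and 1305, 1235 and 1234 in RORγtN275D replicates 1 to 3. All WT libraries were above all RORγtN275D libraries, and the highest WT value was in the library that stood apart. The log2 fold change was -0.41 ± 0.056 (SE, n = 3 a genotype), a decrease of 24.6%, with an adjusted p of 1.8e-05 in limma. It was also called lower without WT replicate 3.

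Both kinesin-6 motors with the number 20 were lower. Kif20b, which acts in the last step of cytokinesis, had 1587, 1699.7 and 1439 normalized reads in WT and 1238, 1345 and 1353 in RORγtN275D libraries. Its log2 fold change was -0.26 ± 0.058 (adjusted p = 0.00145, limma), with no overlap between genotypes. Kif20a, which carries the chromosomal passenger complex to the spindle midzone, had 2728, 2514 and 2575 in WT and 2260.2, 2233 and 2164 in RORγtN275D libraries. The log2 fold change of Kif20a was -0.23 ± 0.043 (adjusted p = 0.000299, limma), again without overlap. Of the exon bases of Kif20a, 29.3% are also exons of Cdc23 on the opposite strand, and Cdc23 itself was called lower (log2 fold change -0.23). Whether reads were counted by strand is not given in the sources used here, so the part of reads from Cdc23 in the value of Kif20a was not tested. Exons of several other kinesins also overlap genes on the opposite strand, with the same limit.

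Kif14, which works with citron kinase in cytokinesis, had 887, 938 and 828 normalized reads in WT and 786, 772 and 801 in RORγtN275D libraries. Its log2 fold change was -0.17 ± 0.055 (adjusted p = 0.0183, limma). The highest mutant library lay below the lowest WT library. The call was lost in 4 of 17 alternative settings, among them without WT replicate 2 (-0.12) and without RORγtN275D replicate 1 (-0.17) or 2 (-0.15).

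The other called mitotic kinesins had changes of -10.5% to -8.07%. They were Kif22, a chromokinesin that pushes chromosome arms toward the equator (log2 fold change -0.16), Kifc1, a minus-end motor that crosslinks spindle microtubules (-0.15), Kif11, the motor that separates the spindle poles and is also called Eg5 (-0.13), and Kif2c, a depolymerase at centromeres (-0.12). Kifc1 had the most normalized reads per kilobase of exon of any kinesin, 818 ± 2.84 (SD, n = 3) in WT and 738 ± 19.9 in RORγtN275D. Its normalized reads were 1929, 1923 and 1936 in WT and 1747, 1783 and 1689.7 in RORγtN275D libraries, with an adjusted p of 0.00667 in limma. Kifc1 has a near-identical copy, Kifc5b, outside the naming rule, with 603, 647 and 660.1 normalized reads in WT and 549, 548 and 582 in RORγtN275D libraries. Reads may have been divided between them, so the value of each is uncertain, but both were lower in all 3 mutant libraries than in all 3 WT libraries.

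Kif11 was the exception on overlap. It had 2989, 2931 and 2623 normalized reads in WT and 2584, 2540.1 and 2655 in RORγtN275D libraries, so WT replicate 3 fell inside the mutant range. Its call (adjusted p = 0.0296, limma) and that of Kif2c (adjusted p = 0.0248) were each lost in 7 of 17 alternative settings.

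The 4 mitotic kinesins not called were Kif23, Kif4, Kif18a and Kif15. Kif23, the motor of the centralspindlin complex, had a log2 fold change of -0.09 with a 95% interval from -0.19 to 0.01. Kif4, a chromokinesin that also sets the length of the anaphase midzone, had -0.05, from -0.15 to 0.04. Kif15, which can take over pole separation from Kif11, had 0.05, from -0.09 to 0.18. Kif18a, which holds chromosomes at the equator, had -0.0014, from -0.19 to 0.19. The interval of Kif18a is wide because its WT libraries ran from 329 to 443 normalized reads, while its mutant libraries ran from 379 to 397. Kif18a and Kif18b, both kinesin-8 motors, thus had values of -0.0014 and -0.41, although the difference between the 2 genes was not tested.

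**Figure D2:**
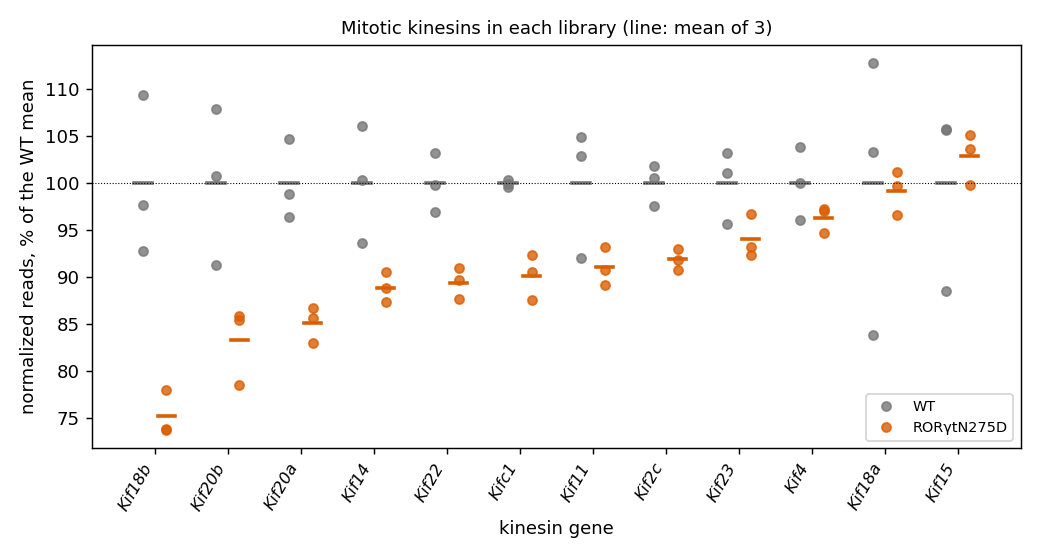
Normalized reads of the 12 mitotic kinesins in each library, as a percent of the gene's WT mean (y axis), with grey points for the 3 WT and orange points for the 3 RORγtN275D libraries and a line at each mean. The mutant points of Kif18b lie lowest, at 1234 to 1305 normalized reads against 1552 to 1831 in WT. In 7 of 12 genes every orange point lies below every grey point. The same held for 3528 of all 11908 genes tested.

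Genes that work beside mitotic kinesins were also called lower. Of 28 partners, among them Aurora kinases, centralspindlin and kinetochore genes, 16 were called lower and 0 higher, with a median of -0.14, where 26.1% of all genes were called lower and 24.7% higher. The largest decrease was in Psrc1, a spindle protein known to recruit the depolymerase Kif2a, with 1450.4, 1650.3 and 1752 normalized reads in WT and 1087, 1066 and 999 in RORγtN275D libraries (log2 fold change -0.62 ± 0.062, adjusted p = 5.8e-07, limma). Plk1, a mitotic kinase whose targets include Kif20a, had a log2 fold change of -0.32. Cdca8, the Borealin subunit of the chromosomal passenger complex that Kif20a carries, had -0.29. Cenpe, the kinetochore kinesin, had 3157, 3067 and 2633 in WT and 2637, 2737 and 2868 in mutant libraries, and was not called (adjusted p = 0.16, limma).

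Other cell cycle genes were lower as well. Of 24 S phase genes, 18 were called lower and 1 higher, with a median of -0.24, and of 25 G2/M genes without kinesins 15 were called lower and 1 higher, with a median of -0.20, against the same 26.1% lower and 24.7% higher over all genes. The largest decreases were -0.46 for Ung, -0.43 for Gins1 and -0.43 for Tyms in the S phase list, and -0.64 for Gtse1, -0.48 for Ccnf and -0.39 for Ccna2 in the G2/M list. The members called higher were Dtl (0.13) and Cenpf (0.12), and in several alternatives, for the G2/M list DESeq2 and the replicate block among them, 0 members were called higher. In bulk RNA, fewer cells in mitosis and less of these transcripts per mitotic cell cannot be told apart.

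Among the cargo-transport kinesins, the tested kinesin-2 subunits were called higher with the exception of the most abundant. Kif3c, which pairs with Kif3a, had 222, 228 and 223 normalized reads in WT and 304, 305 and 293 in RORγtN275D libraries. The libraries of each genotype lay close together and the genotypes did not overlap (log2 fold change 0.42 ± 0.071, adjusted p = 0.000138, limma). Of the exon bases of Kif3c, 35.3% are also exons of 1110002L01Rik, an antisense transcript not analysed here, and its part in the value was not tested.

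Kif3a, the subunit common to both kinesin-2 heterodimers, had 344, 385 and 347 normalized reads in WT and 457, 455 and 392 in RORγtN275D libraries. Its log2 fold change was 0.28 ± 0.076 (adjusted p = 0.00625, limma), and the genotypes were separated by a few reads, from 385 to 392. Kif3b, the usual partner of Kif3a, was the most abundant, with 2142, 2298 and 2215 normalized reads in WT and 2117, 2159.9 and 2105 in RORγtN275D libraries. Its log2 fold change was -0.06, with a 95% interval from -0.15 to 0.03, and it was not called. Kifap3, the adaptor that joins the kinesin-2 heterodimer to cargo, was called higher, with 344, 343 and 335 in WT and 423, 371 and 400.0 in mutant libraries (log2 fold change 0.22).

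Kinesin-1 heavy chains move vesicles and mitochondria with light chains that bind the cargo. Kif5b, the ubiquitous heavy chain, had the most reads per kilobase of the transport group, 635 ± 42.5 (SD, n = 3) in WT and 665 ± 25.8 in RORγtN275D. Its normalized reads were 3928, 4027 and 3542 in WT and 3935, 3912 and 4193 in RORγtN275D libraries. The groups overlapped, and the log2 fold change of 0.07 had a 95% interval from -0.03 to 0.17. Kif5c, a heavy chain best known from neurons, was far lower in level, 31.0 ± 1.23 reads per kilobase in WT, and was called higher. It had 222, 207 and 208 normalized reads in WT and 236, 262 and 269 in RORγtN275D libraries (log2 fold change 0.26 ± 0.081, adjusted p = 0.0124, limma). Its call was lost in 3 of 17 alternative settings, quantile scaling (0.19) and without RORγtN275D replicate 2 (0.24) or 3 (0.23). Kif5a, the other neuronal heavy chain, had 27.3, 43.4 and 48.1 in WT and 52.9, 61.2 and 49.4 in mutant libraries. Its genotypes did not overlap, but the gap ran only from 48.1 to 49.4 and the adjusted p was 0.0514 (log2 fold change 0.49 ± 0.198, limma). The lowest WT library weighed most on Kif5a: without WT replicate 1 the value was 0.24 (adjusted p = 0.268), while 5 of 16 alternatives called it higher, including the replicate block (adjusted p = 0.0381).

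Because Kif5a and Kif5c are neuronal genes, neuron markers were read beside them. Tubb3, Snap25 and Syt1 together had 59.5 to 70.6 normalized reads in WT and 108 to 118 in RORγtN275D libraries. Syt1 was at 0 in all WT libraries and at 0 to 0.998 in mutant libraries. Their part in the kinesin-1 values was not tested.

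The 3 cargo-transport kinesins called lower belong to other families. Kifc3 (chr8:95099828-95202826 in mm10), a C-terminal motor of epithelial junctions and Golgi position, had the largest change of all kinesins. It had 119, 128 and 138 normalized reads in WT and 92.8, 79.3 and 65.2 in RORγtN275D libraries, without overlap. The log2 fold change was -0.71 ± 0.131 (adjusted p = 0.000312, limma), a decrease of 38.7%.

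Kif13b and Kif13a are kinesin-3 motors of plasma membrane and endosome traffic. Kif13b, which is known to carry the scaffold protein Dlg1, had 525, 506 and 555 normalized reads in WT and 409, 482 and 435 in RORγtN275D libraries (log2 fold change -0.26 ± 0.069, adjusted p = 0.00491, limma). Kif13a had 639, 677 and 635 in WT and 605, 568 and 591 in mutant libraries (log2 fold change -0.15 ± 0.056, adjusted p = 0.0406, limma). Neither overlapped between genotypes. The call of Kif13a was lost in 7 of 17 alternative settings, and that of Kif13b in 0.

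The other kinesin-3 members were not called. Kif1b, a carrier of mitochondria and vesicles, had a log2 fold change of 0.05 with a 95% interval from -0.04 to 0.15. Kif1c, which carries integrin vesicles, had 0.06, from -0.04 to 0.15. Kif16b, a motor of early endosomes, had 0.02, from -0.10 to 0.14. None of these intervals reaches the fitted change of Kif3c or Kif13b. Kif1a (0.09, from -0.39 to 0.57) and Kifc2 (0.19, from -0.41 to 0.79) had fewer than 30 normalized reads in every library, and their intervals are wide. Kif17 and Kif28 were below the filter on low values, with 1.00 to 4.99 normalized reads for Kif17 and 0 to 1.997 for Kif28.

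**Figure D3:**
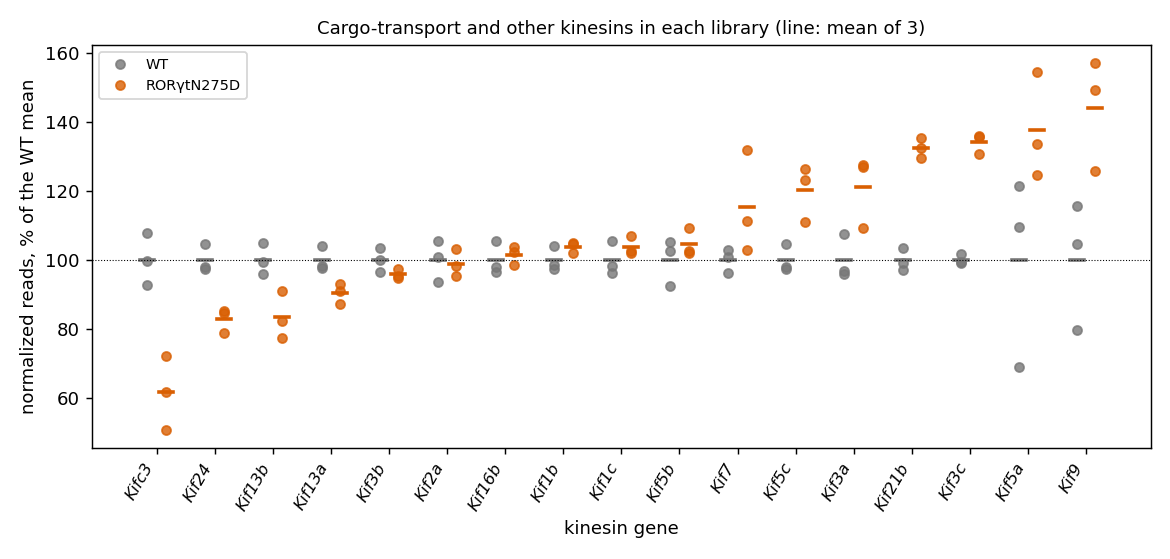
Normalized reads of cargo-transport and other kinesins with a mean of at least 30, in each library, as a percent of the gene's WT mean (y axis), with grey points for WT, orange points for RORγtN275D and a line at each mean of 3. Kifc3 lies lowest, with 65.2 to 92.8 normalized reads in the mutant against 119 to 138 in WT, and the tight groups of Kif21b and Kif3c lie apart at the right.

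Of 22 partners of transport kinesins tested, such as adaptors and light chains, 9 were called higher and 1 lower, with a median of 0.11. Over all genes 24.7% were called higher, 26.1% lower and 50.9% in either direction, and the 10 of 22 partners called make no larger a share. Hap1, a linker of motors to vesicles that is best known from neurons, had the largest log2 fold change, 0.70, from 13.8 to 18.2 normalized reads in WT to 21.1 to 29.9 in mutant libraries. Klc3, a kinesin-1 light chain, had 0.40, and Spag9, the JIP4 scaffold between kinesin-1 and dynein, had 0.37. Spag9 had 1588, 1549 and 1491 normalized reads in WT and 1953, 1882 and 2143 in RORγtN275D libraries. Klc1, the most abundant light chain measured, was not called (log2 fold change -0.02). The member called lower was Rhot2, an anchor of motors on mitochondria, with 1776, 1728 and 1903 in WT and 1436, 1454 and 1438 in mutant libraries (log2 fold change -0.32 ± 0.046, adjusted p = 2.7e-05, limma).

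Dynein, which moves cargo in the opposite direction, and its activator dynactin were mixed. Of 28 genes tested, 10 were called higher and 5 lower, with a median of 0.09, a share in either direction near the 50.9% of all genes. Dctn4, a dynactin subunit, had 1300.0, 1287 and 1212 normalized reads in WT and 1844, 1892 and 1871 in RORγtN275D libraries (log2 fold change 0.56 ± 0.045, adjusted p = 4.2e-08, limma). Hook2, a cargo adaptor of dynein, had 0.54. Dynlt1b, a dynein light chain, had 1.45 and was the sole member of the list past 2-fold, but it has near-identical tandem copies, among them Dynlt1a (0.17, not called) and Dynlt1c (0.17, called higher), so its value is uncertain.

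Of the remaining kinesins, Kif21b had the firmest difference in the family. Kif21b (chr1:136131390-136178001 in mm10) is a kinesin-4 motor that limits microtubule growth and is known in T cells for its part in moving the centrosome to the immunological synapse. It had 2564, 2618 and 2733 normalized reads in WT and 3421, 3495 and 3576 in RORγtN275D libraries. The distance between the genotypes was several times the spread within either, with a log2 fold change of 0.41 ± 0.040 and an adjusted p of 4.7e-07 in limma. Per kilobase it was also the most abundant of the remaining kinesins, with 289 ± 9.47 (SD, n = 3) in WT and 384 ± 8.50 in RORγtN275D. Its paralog Kif21a was nearly absent, with 2.02, 9.08 and 2.95 normalized reads in WT and 0, 1.00 and 0.988 in mutant libraries, below the filter.

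Kif24, which trims microtubules at the mother centriole and restrains cilium growth, had 393, 419.6 and 390.0 normalized reads in WT and 341, 339 and 316 in RORγtN275D libraries (log2 fold change -0.27 ± 0.067, adjusted p = 0.00321, limma). Its window holds CHR letters 26 bases before the start site, and 4 CCAAT boxes in reverse upstream of them. Of the other kinesins in this group, Kif26b and Kif27 also have CHR letters in their windows, and both were below the filter on low values.

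Kif9, a motor of the ciliary axoneme, was low in level, with 37.3, 41.4 and 28.5 normalized reads in WT and 44.9, 56.2 and 53.3 in RORγtN275D libraries. The log2 fold change was 0.52 ± 0.179 (adjusted p = 0.0223, limma). The call was lost in 6 of the 16 alternative settings that tested Kif9, which the filter of at least 100 left out. Kif7, a Hedgehog pathway motor at the cilium tip, had a log2 fold change of 0.20 with a 95% interval from -0.03 to 0.42 and was not called. Kif2a, a depolymerase of interphase and spindle microtubules, had -0.01, from -0.13 to 0.10, and was not called. Besides Kif21a, the other kinesins below the filter were Kif12, Kif19a, Kif19b, Kif26a, Kif26b and Kif27, each with 0 to 6.05 normalized reads in a library. Markers of multiciliated cells were close to absent, with Dnah5 and Ccdc39 between 0 and 2.02 normalized reads in every library, while Foxj1 had 17.1 to 22.6 in WT and 24.7 to 39.9 in mutant libraries.

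**Figure D4:**
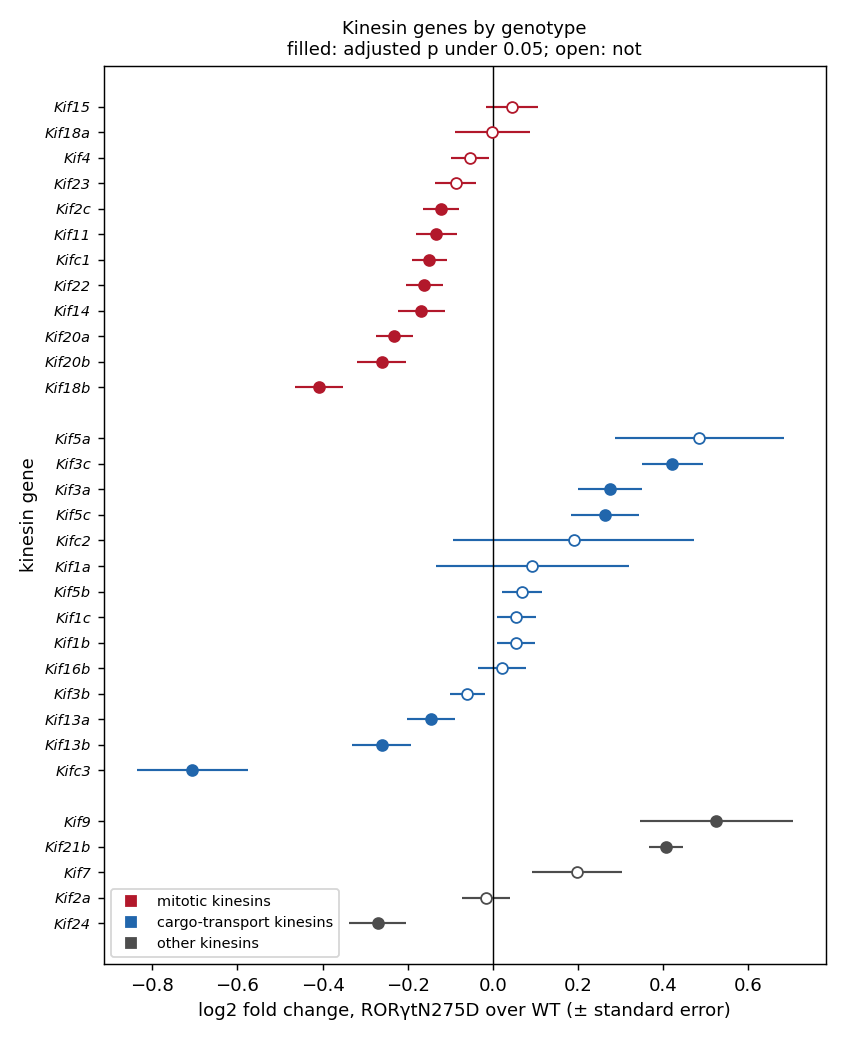
log2 fold change of the 31 tested kinesins, RORγtN275D over WT (x axis), with bars of ± 1 standard error. Filled points passed an adjusted p of 0.05 and open points did not. In the mitotic group (red) 8 filled points lie left of 0, whereas the cargo-transport group (blue) has 3 filled points on each side and the others (grey) have 2 on the right and 1 on the left.

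On a scale of normalized reads per kilobase of exon, where levels of genes can be compared, the mitotic kinesins took the first places in WT. Kifc1 at 818 ± 2.84 (SD, n = 3) was followed by Kif22 at 753 ± 23.6, Kif20a at 652 ± 27.6, Kif5b at 635 ± 42.5 and Kif11 at 591 ± 40.9. Neighbours from Kif20a to Kif11 did not differ beyond their spread. In RORγtN275D cells Kifc1 at 738 ± 19.9 was still first, and Kif22 at 673 ± 12.4 and Kif5b at 665 ± 25.8 lay within their spread of each other, with Kif20a at 555 ± 12.4 below them. Kif21b, below Kif3b, Kif23 and Kif4 in WT at 289 ± 9.47, was at 384 ± 8.50 in the mutant, within its spread of Kif3b at 378 ± 5.14 and above Kif23 at 336 ± 8.19. The lowest tested kinesin was Kif1a, at 2.42 ± 0.198 in WT.

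**Figure D5:**
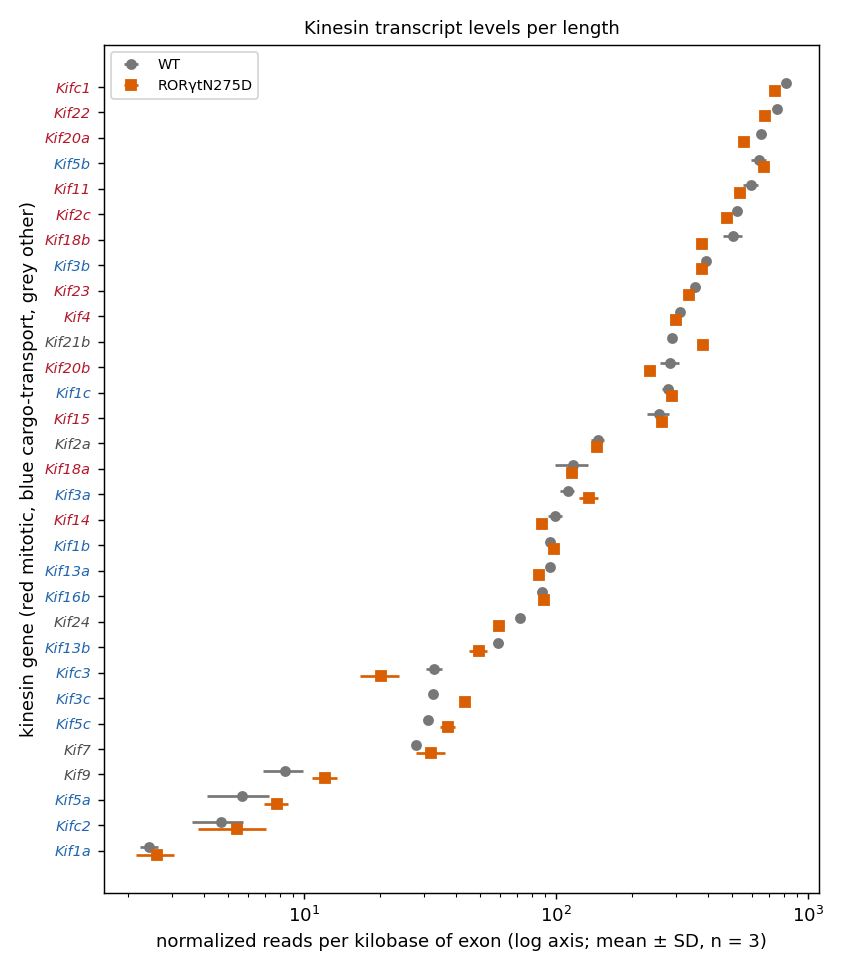
Normalized reads per kilobase of exon (x axis, log scale) of the 31 tested kinesins, mean ± SD of 3 libraries, in WT (grey circles) and RORγtN275D (orange squares), ordered by the WT level. Levels run from 2.42 (Kif1a) to 818 (Kifc1) in WT, and Kif21b is the gene whose orange square lies farthest right of its circle among abundant kinesins.

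The libraries carried the markers of Th17 cells. The 7 markers of Th17 and CD4 T cells, among them Cd4, Cd3e, Il17a, Il17f, Il23r and Ccr6, were all present, and together had 73274 to 77254 normalized reads in WT and 85075 to 85816 in RORγtN275D libraries. Markers of other cells were low, and some differed between genotypes. The 6 B cell markers together had 1117 to 1155 in WT and 1687 to 1754 in mutant libraries, most of it from Ebf1, and Ms4a1 had at most 1.01 in WT and 3.99 to 9.88 in the mutant. The 4 measured markers of CD8 T and natural killer cells had 139 to 164 and 205 to 224, with Cd8a overlapping between genotypes. The 6 myeloid markers had 89.8 to 108 and 105 to 129.8, which overlap, and among them Adgre1 was lower in the mutant (19.2 to 25.5 against 4.01 to 9.98) and Cd14 higher (8.07 to 15.1 against 22.1 to 24.0). The part of such cells in the kinesin values was not tested.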

How the data were processed

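RNA was measured in 6 Th17 libraries. Per the methods, the authors' pipeline was read trimming, STAR alignment to the mm10 genome, featureCounts for counting and DESeq2. The methods describe DNBSEQ strand-specific paired-end libraries, whereas the labels name poly-A selection and a NEBNext directional kit. The deposited values are a signal, read counts normalized with 1 size factor a library: 100% were whole multiples of 1 step within 1e-06. The authors' columns of log2 fold changes, q-values and group averages were not used.

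Genes with a mean of at least 10 normalized reads (11908 of 16244) were fitted with limma 3.58.1 in R 4.3.3 (eBayes with trend) on log2(normalized reads + 1), so fold changes of low genes are understated. p-values were adjusted by Benjamini-Hochberg over all genes tested, and genes were called at 0.05. An exact permutation test of 3 against 3 libraries cannot go below p = 0.1. The fit was tested on simulated data. Alternatives changed the pseudocount (0.1, 10), the filter (mean above 0, at least 100), scaling, trend, library weights, replicate block and each library, and ran edgeR 4.0.16 and DESeq2 1.42.0 on the recovered reads.

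Reads per kilobase used the union of GENCODE exons, and promoter windows came from RefSeq. Every tested kinesin is named. Library values are given for called members with the 4 largest increases and decreases in each group and the most abundant per kilobase, and the 3 largest called changes of each partner list are named. Other values were chosen after they were seen. Values of some genes are not reported here. Members and lists were chosen with earlier results of these data known.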

Additional observations from a re-analysis of the deposited data

How the results depend on the processing

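The calls of Kif18b, Kif20a, Kif20b, Kif22, Kif3a, Kif3c, Kif13b, Kifc3, Kif21b and Kif24 held in all 17 alternatives run. Of 523 kinesin values under an alternative, 467 kept direction and side of the threshold, 35 lost the call, 9 gained one and 12 changed sign. Quantile scaling left 5 mitotic kinesins called lower, with a median of -0.082, since the calls of Kif11, Kif2c and Kifc1 were lost, and 1 dynein and dynactin gene called lower, against 2 without the trend. Under quantile scaling the kinesin groups and partner lists kept the sign of their medians, and the values of Kif1a and Kifc2 became -0.12 and -0.043. Library weights gave Kif15 -0.0085. Without the filter on low values 1 kinesin, Kif21a, passed 2-fold. The cause of these shifts was not tested.

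Leaving out each library in turn gave 3 to 6 kinesins called higher, 5 to 9 mitotic kinesins lower and 2 to 5 cargo-transport kinesins higher. Without WT replicate 3 there were 5 cargo-transport kinesins higher, without RORγtN275D replicate 1 or 2 there were 5 mitotic kinesins lower, and without RORγtN275D replicate 2 or 3 there were 3 kinesins higher. Without RORγtN275D replicate 1, 5 transport partners were called higher and 3 dynein and dynactin genes lower. Over these settings Kif18a ran from -0.12 to 0.091, Kif2a from -0.061 to 0.024, Kif16b from -0.0021 to 0.061, Kif15 from -0.040 to 0.088, Kif1a from -0.039 to 0.17 and Kifc2 from -0.022 to 0.39 on the log2 scale, none of them called.

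With the replicate block, 6 kinesins were called higher and 10 lower, 7 mitotic kinesins lower, and 4 cargo-transport kinesins higher and 2 lower. Deviations of same-numbered libraries correlated at -0.045, 0.041 and -0.083, which does not show that the numbers pair the libraries. With 3 libraries a genotype, deviations from a genotype mean depend on each other, so these values cannot exclude pairing. Of the WT libraries, replicate 2 correlated best with its own number, and replicates 1 and 3 with other numbers.

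Kif1a and Kifc2 had few reads and wide intervals, and 9 kinesins below the filter were not tested.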
